A study of Homo sapiens with 2 samples.

Results

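Transcripts of 10 circadian clock genes were compared between 2 libraries of human primitive macrophages, 1 labelled Control and 1 labelled PNU282987. The genes were PER1, PER2, PER3, CRY1, CRY2, CLOCK, BHLHE40, BHLHE41, DBP and TEF, taken by symbol from a deposited table of 46865 loci. All 10 were found, and all 10 reached a mean of at least 1 CPM. CPM relates the reads of a locus to the total of its library, here with totals scaled by TMM, a method that sets the bulk of loci to equal levels. Both libraries came from the wild-type human induced pluripotent stem cell line 1231A3 (HPS0381), differentiated with cytokines and inhibitors for 30 days into primitive macrophages, the embryonic macrophages from which microglia descend. The PNU282987 cells were labelled as given 100 µM of that compound, which fully activates the α7 nicotinic receptor for acetylcholine, for 12 hours. One label field of that library, its treatment, gives amyloid β instead, while the title, protocol and library name all give PNU282987. The labels of the Control library name no agonist, and no vehicle or time of day is given for either library. With 1 library per group from 1 cell line, the differences below lack a replicate check and no p-value can be given.

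The circadian clock is a feedback loop of transcription that runs in most cell types, macrophages included. CLOCK and its partner BMAL1 bind E-box sequences and activate the PER and CRY genes, whose proteins return to the nucleus and repress CLOCK and BMAL1. BHLHE40 and BHLHE41 compete for the same E-boxes as repressors, the nuclear receptors of the REV-ERB and ROR families control BMAL1, and DBP and TEF, activators of the PAR bZIP family, carry the rhythm to output genes through D-box sequences. In cultured cells the phase of the clock also shifts with serum, glucocorticoids and cAMP signals. A single harvest per group measures levels at that harvest and gives no phase, period or amplitude.

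The libraries held 39316475 reads in Control and 36134391 in PNU282987. The floor of 3 reads, set for a count of 0 in ratios, stood at 0.0770 and 0.0823 CPM. All 10 macrophage markers examined were expressed, with a summed level of 6038 CPM in Control and 5982 CPM in PNU282987. Within that sum 4 had a higher and 6 a lower ratio beyond counting error. CD14 had 96.3 and 539 CPM (5.60-fold higher) and ITGAM 138 and 473 CPM (3.44-fold higher), both past 2-fold, while TYROBP had 424 and 282 CPM. The 6 pluripotency markers summed to 0.231 and 0.713 CPM, and POU5F1 and TDGF1 had no reads. Markers of other cells were present. Of the 6 mesenchymal markers 5 had a higher ratio beyond counting error in PNU282987, with a summed level of 2224 and 2527 CPM. All 5 granulocyte progenitor markers had a lower one, at 694 and 477 CPM. Among all loci tested 33.5% were higher and 33.6% lower in that way. Some of these differences were lost once the trend of all ratios over GC content and transcript length was removed. Of the 5 mesenchymal markers with a known length 3 were then higher and 1 lower. Of the 5 granulocyte progenitor markers 3 were then lower and none higher. Over all loci with a known length 30.4% were then higher and 32.1% lower. Endothelial markers summed to 149 and 103 CPM, of which PECAM1 gave 135 and 84.0 CPM, while KDR was 1.41-fold higher. TEK had 1.80 and 2.08 CPM, and CDH5 only 0.565 and 0.329 CPM from 22 and 12 reads. The endothelial sum and its fall thus rest on PECAM1. The sums were for mast cell markers 6.80 and 4.55 CPM, for megakaryocyte markers 2.67 and 2.28 CPM and for erythroid markers 0.128 and 0.0823 CPM. The part of these cells in the ratios of the clock genes was not tested. In these bulk libraries fewer cells of a type and less RNA per cell cannot be told apart. Below, intervals are exact 95% counting intervals, Poisson for levels and Clopper-Pearson for ratios and shares, and leave out the spread between cultures.

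None of these 10 clock genes passed a 2-fold rule between the libraries. It asked for a ratio of at least 2-fold, a counting interval that excludes equality and a mean of at least 1 CPM. It called 0 of the 10 genes, and 5.77% of the 14269 loci whose mean reached 1 CPM, 2.96% higher and 2.81% lower. At 1.5-fold with the other conditions kept it called 2 of the 10, DBP and TEF, both lower, against 8.66% of loci called lower and 8.77% called higher (17.4% in all). DBP fell short of 1.5-fold after removal of the trend over GC content and transcript length, and with overlapping reads added, so 1 of these calls is lost under each. The 95% intervals of TEF and DBP reach past 2-fold. The interval alone excluded equality for 9 of the 10 genes, 5 higher and 4 lower in PNU282987. It did so for 67.1% of all loci, 33.5% higher and 33.6% lower, so such an exclusion is common at this depth and the count is not a result about clock genes. The median log2 ratio of PNU282987 to Control was 0.031 over the 10 genes and -0.008 over all loci tested. CLOCK, PER2, BHLHE41, BHLHE40 and CRY1 stood above equality, and TEF, DBP, CRY2, PER1 and PER3 below it.

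**Figure D1:**
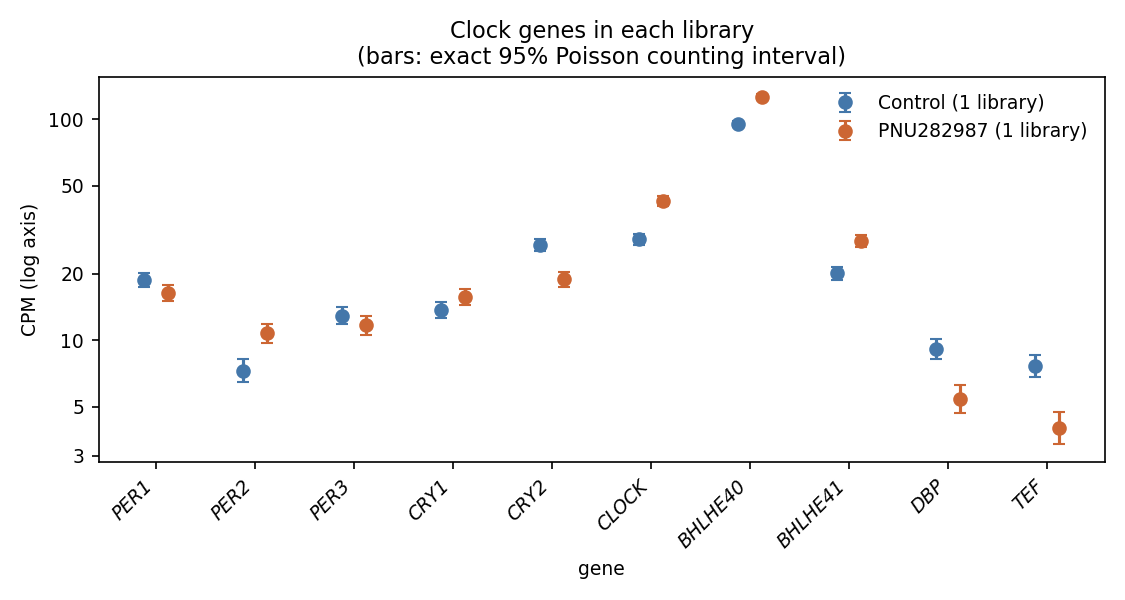
Level of each clock gene in the Control library (blue) and the PNU282987 library (orange), in CPM on a log axis, with exact 95% Poisson counting intervals and 1 library per group. BHLHE40 is the highest in both libraries, and the intervals of PER1, PER3 and CRY1 overlap between the libraries.

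**Figure D2:**
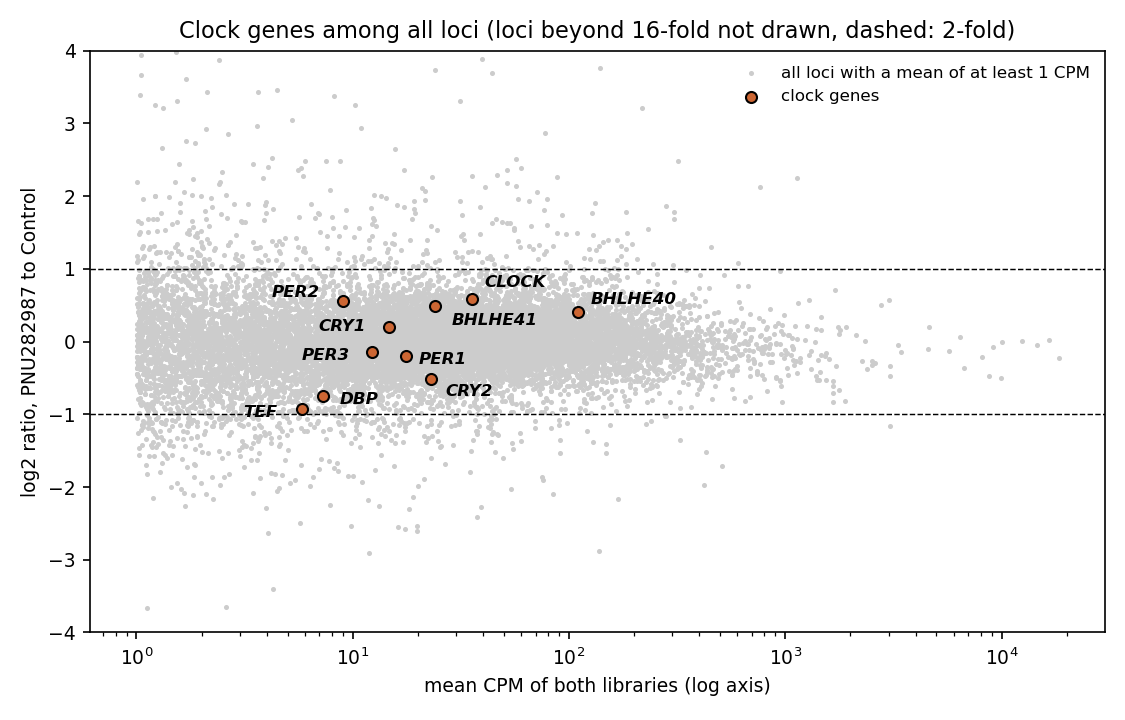
Log2 ratio of PNU282987 to Control against the mean CPM of both libraries (log axis) for all loci whose mean reached 1 CPM (grey) and the 10 clock genes (orange). Loci beyond 16-fold are not drawn. All 10 clock genes lie inside the dashed 2-fold lines, TEF nearest to one of them at -0.93.

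Among the 3 PER genes, which encode the period repressors, PER2 parted from the others. PER2 (GRCh38, chromosome 2, 238244044 to 238300065, minus strand) had 284 Control reads and 391 PNU282987 reads, or 7.29 CPM (6.46 to 8.19) and 10.7 CPM (9.69 to 11.8). Its counting intervals did not overlap, and the log2 ratio was 0.56 (0.33 to 0.78). PER1 (chromosome 17, 8140472 to 8152404, minus strand), the period gene best known for rapid induction by cAMP and glucocorticoids, had 732 and 597 reads, or 18.8 CPM (17.4 to 20.2) and 16.4 CPM (15.1 to 17.7). Its log2 ratio was -0.20 (-0.36 to -0.04), and the interval reached from -0.24 to 0.074 once the trend of all ratios over GC content and transcript length was removed. PER3 (chromosome 1, 7784291 to 7845177, plus strand), the period gene least needed for rhythm in mice, had 502 and 426 reads, or 12.9 and 11.7 CPM, and a log2 ratio of -0.14 (-0.33 to 0.048). Without that trend PER3 had a log2 ratio of -0.31 (-0.50 to -0.12), which excludes equality. Whether PER1 or PER3 differed beyond counting error thus depended on that correction, while the interval of PER2 excluded equality in both.

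The division of reads within the PER family does not depend on how the libraries are scaled. PER2 took 18.7% (16.8 to 20.8) of the 1518 PER reads in Control and 27.7% (25.3 to 30.1) of the 1414 in PNU282987. PER1 took 48.2% (45.7 to 50.8) and 42.2% (39.6 to 44.8), and PER3 33.1% and 30.1%. PER1 had the most PER reads in both libraries, and the summed PER level was 39.0 and 38.8 CPM. The log2 ratio of PER2 exceeded that of PER1 by 0.76 (0.48 to 1.03) and that of PER3 by 0.70 (0.40 to 0.99), and those of PER1 and PER3 differed by -0.06 (-0.31 to 0.19). With the trend removed PER2 still exceeded PER1 by 0.55 (0.27 to 0.82) and PER3 by 0.77 (0.48 to 1.07).

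The promoters of PER1 and PER2 are shown because these paralogs differed in ratio. Each window runs from 250 bases before to 50 bases after a transcription start of RefSeq on GRCh38.p14, 5′ to 3′ on the strand of the gene. Capitals mark every match, on either strand, to the E-box CACGTG, to the variant E-box CACGTT or its complement AACGTG, or to the D-box TTANNTAA. The PER1 window is chr17:8152355-8152654, and the PER2 window is chr2:238288561-238288860.
PER1: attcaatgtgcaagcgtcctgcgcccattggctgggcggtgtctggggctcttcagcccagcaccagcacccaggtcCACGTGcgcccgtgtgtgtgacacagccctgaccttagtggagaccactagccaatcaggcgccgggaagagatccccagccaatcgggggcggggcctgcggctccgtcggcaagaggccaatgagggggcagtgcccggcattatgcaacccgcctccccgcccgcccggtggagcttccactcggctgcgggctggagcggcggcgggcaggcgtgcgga
PER2: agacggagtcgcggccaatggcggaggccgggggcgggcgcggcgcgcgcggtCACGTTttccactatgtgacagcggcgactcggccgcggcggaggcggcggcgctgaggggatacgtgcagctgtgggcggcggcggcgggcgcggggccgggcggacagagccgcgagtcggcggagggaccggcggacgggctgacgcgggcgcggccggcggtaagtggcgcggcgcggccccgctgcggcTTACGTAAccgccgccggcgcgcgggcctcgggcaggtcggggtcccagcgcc
The PER1 window held a CACGTG that begins at position -173 from the start. The PER2 window held no CACGTG but a CACGTT at -197 and a D-box match, TTACGTAA, that begins at -3 and runs across the start. Over all 35116 promoter windows of the RefSeq table, 7.26% held a CACGTG, 5.34% a CACGTT or AACGTG and 5.63% a TTANNTAA. A match is a string of letters in this window and was not tied to binding here.

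The 2 cryptochromes, the partners of the PER proteins in repression, also parted. CRY2 (chromosome 11, 45847118 to 45883244, plus strand) had 1052 Control reads and 687 PNU282987 reads, or 27.0 CPM (25.4 to 28.7) and 18.8 CPM (17.5 to 20.3), a log2 ratio of -0.52 (-0.66 to -0.38). CRY1 (chromosome 12, 106991364 to 107093549, minus strand), the stronger repressor in mouse cells, had 533 and 574 reads, or 13.7 CPM (12.5 to 14.9) and 15.7 CPM (14.5 to 17.1), a log2 ratio of 0.20 (0.030 to 0.38). The counts of CRY2 stood clear of each other, whereas the interval of CRY1 only just excluded equality and included it when all counts were halved. The log2 ratio of CRY1 exceeded that of CRY2 by 0.72 (0.50 to 0.95), or by 0.62 (0.40 to 0.85) after removal of the GC and length trend. CRY1 took 33.6% (31.3 to 36.0) of the CRY reads in Control and 45.5% (42.7 to 48.3) in PNU282987. Per kb of the longest transcript, CRY1 held 39.5% of the family in Control and 51.8% in PNU282987. The order in PNU282987 depended on the length used. With the median transcript length CRY2 stood above CRY1 in PNU282987, at 6.02 CPM per kb (5.58 to 6.49) against 4.82 (4.43 to 5.23). The summed level of both genes was 40.7 and 34.6 CPM.

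**Figure D3:**
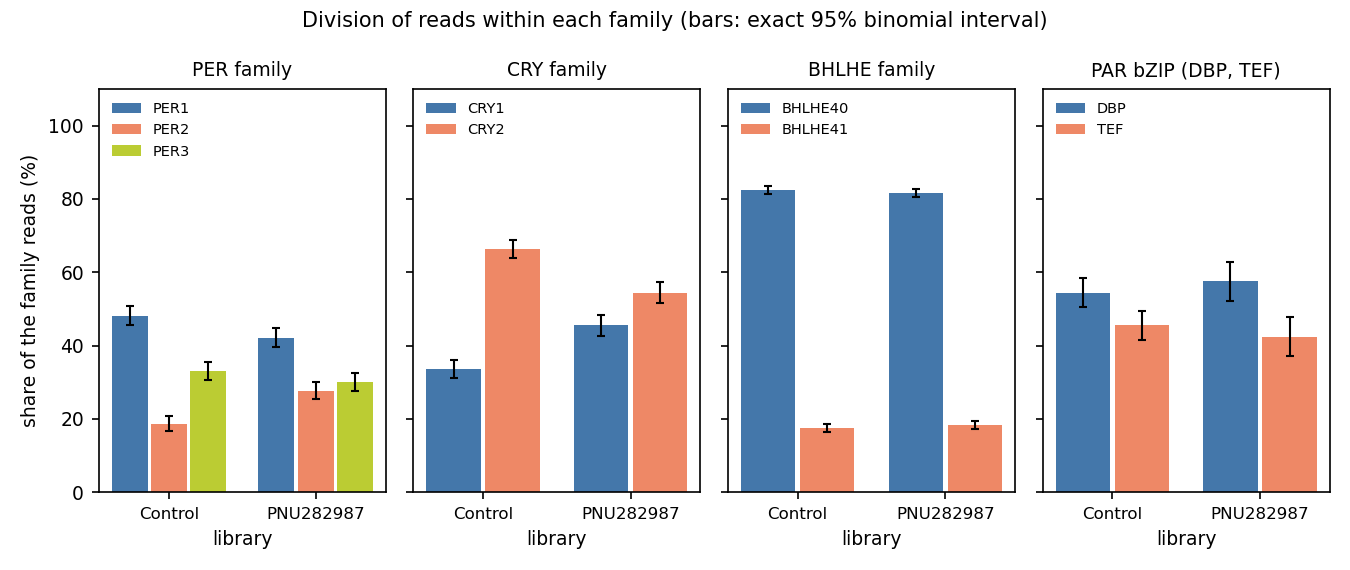
Share of each gene in the reads of its family, in percent, in the Control and PNU282987 libraries, with exact 95% binomial intervals. The share of PER2 is 18.7% in Control and 27.7% in PNU282987 and that of CRY1 33.6% and 45.5%, while BHLHE40 and BHLHE41 divide their reads alike in both libraries.

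CLOCK, the activator of the loop, had the highest ratio of the 10 genes. CLOCK (chromosome 4, 55427903 to 55546909, minus strand) had 1113 Control reads and 1556 PNU282987 reads, or 28.6 CPM (26.9 to 30.3) and 42.7 CPM (40.6 to 44.9). The log2 ratio was 0.58 (0.47 to 0.69), and 8.98% of the loci tested had a higher one. That value depended on the processing. CLOCK has a long transcript of low GC content, 10304 bases and 37.2% GC, and after removal of the GC and length trend its log2 ratio was 0.17 (0.059 to 0.28). TMEM165, which shares 25495 bases of the locus and had 3207 and 3425 reads, brought the log2 ratio to 0.30 (0.24 to 0.36) when its reads were added. TMEM165 had more reads than CLOCK, so that sum moves toward its ratio whether or not reads were misassigned. BMAL1, the partner of CLOCK, listed in the table under its older symbol ARNTL, had 725 and 711 reads, or 18.6 and 19.5 CPM, a log2 ratio of 0.07 (-0.08 to 0.22). The log2 ratio of CLOCK exceeded that of BMAL1 by 0.51 (0.32 to 0.70), and by 0.12 (-0.07 to 0.31) with the trend removed. The latter interval includes no difference between the partners.

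BHLHE40 and BHLHE41, the E-box repressors, had higher counts in PNU282987 together. BHLHE40 (chromosome 3, 4979437 to 4985323, plus strand) had 3695 Control reads and 4586 PNU282987 reads, or 94.8 CPM (91.8 to 97.9) and 126 CPM (122 to 129). BHLHE41 (chromosome 12, 26120030 to 26125037, minus strand) had 782 and 1026 reads, or 20.1 CPM (18.7 to 21.5) and 28.1 CPM (26.4 to 29.9). In both genes the intervals of the libraries lay apart. The log2 ratios were 0.41 (0.34 to 0.47) for BHLHE40 and 0.49 (0.35 to 0.62) for BHLHE41, and 15.5% and 12.1% of loci had a higher one. Their ratios differed by 0.08 (-0.07 to 0.23), an interval that leaves room for no difference and for one of 0.23. BHLHE40 took 82.5% (81.4 to 83.6) of their reads in Control and 81.7% (80.7 to 82.7) in PNU282987. The values barely moved after removal of the GC and length trend, to 0.43 and 0.46. With the reads of overlapping loci added they were 0.41 and 0.47. Those loci had only 5 and 10 reads at BHLHE40 and 32 and 26 at BHLHE41, too few to move the ratios far. The table lists 4 assembled transcript models beside the reference model of BHLHE41 and 1 assembled model at PER1, and reads were given per locus and not per model.

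The BHLHE40 and BHLHE41 promoters are shown because the genes had like ratios and encode repressors that bind the E-box. The windows are chr3:4979187-4979486 and chr12:26124988-26125287, with the same capitals.
BHLHE40: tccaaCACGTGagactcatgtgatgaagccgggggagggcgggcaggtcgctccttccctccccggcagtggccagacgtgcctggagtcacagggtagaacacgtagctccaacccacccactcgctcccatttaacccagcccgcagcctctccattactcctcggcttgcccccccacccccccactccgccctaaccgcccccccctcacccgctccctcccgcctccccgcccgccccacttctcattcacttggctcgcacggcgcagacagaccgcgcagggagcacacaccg
BHLHE41: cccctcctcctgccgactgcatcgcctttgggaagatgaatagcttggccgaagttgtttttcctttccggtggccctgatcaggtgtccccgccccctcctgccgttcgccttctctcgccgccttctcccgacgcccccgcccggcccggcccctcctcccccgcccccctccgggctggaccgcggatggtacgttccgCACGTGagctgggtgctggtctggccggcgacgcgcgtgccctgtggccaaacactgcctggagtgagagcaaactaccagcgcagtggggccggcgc
Each window held 1 CACGTG, at -245 in BHLHE40 and at -48 in BHLHE41, and neither held a D-box match.

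DBP and TEF, the PAR bZIP output factors, had the lowest ratios of the 10. TEF (chromosome 22, 41367455 to 41399326, plus strand) had 297 Control reads and 146 PNU282987 reads, or 7.62 CPM (6.78 to 8.54) and 4.005 CPM (3.38 to 4.71). That is 1.90-fold lower, a log2 ratio of -0.93 (-1.22 to -0.64), and 3.41% of loci had a lower one. After removal of the GC and length trend the log2 ratio was -0.86 (-1.16 to -0.57), and the loci that overlap TEF had no reads. DBP (chromosome 19, 48630030 to 48637379, minus strand), which in many tissues has one of the strongest daily rhythms, had 355 and 198 reads, or 9.11 CPM (8.19 to 10.1) and 5.43 CPM (4.70 to 6.24). Its log2 ratio of -0.75 (-1.004 to -0.49) was less stable, at -0.47 (-0.73 to -0.21) with the trend removed. DBP shares 376 bases at its end with SPHK2, which had 716 and 634 reads, and their addition gave a log2 ratio of -0.27 (-0.40 to -0.14). That sum moves toward the ratio of SPHK2 whether or not reads were misassigned. HLF, the other PAR bZIP factor, had 0 reads in both libraries, which allows up to 0.0770 and 0.0823 CPM. The log2 ratio of DBP exceeded that of TEF by 0.18 (-0.21 to 0.58), and by 0.40 (0.0027 to 0.79) with the trend removed. Only the latter interval excludes no difference, and only just. The summed level of DBP and TEF was 16.7 CPM in Control and 9.44 CPM in PNU282987. NFIL3, a repressor that binds the same D-boxes, had 26.3 and 31.7 CPM, a log2 ratio of 0.27 (0.15 to 0.39).

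The TEF promoter is shown as that of the gene with the lowest ratio. The window of its first start is chr22:41367205-41367504.
TEF: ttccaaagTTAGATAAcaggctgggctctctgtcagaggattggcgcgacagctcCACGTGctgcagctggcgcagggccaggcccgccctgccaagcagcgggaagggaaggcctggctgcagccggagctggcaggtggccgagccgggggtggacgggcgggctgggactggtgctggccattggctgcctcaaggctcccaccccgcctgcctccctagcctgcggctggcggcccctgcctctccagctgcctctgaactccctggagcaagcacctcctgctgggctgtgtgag
It held a CACGTG at -195 and a D-box match, TTAGATAA, at -242. A second TEF window held a CACGTG at -193, and the DBP window held none of the 3 motifs. Of the 10 genes 4 had a CACGTG in at least 1 of their 14 windows, PER1, BHLHE40, BHLHE41 and TEF, and their ratios lay on both sides of equality.

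**Figure D4:**
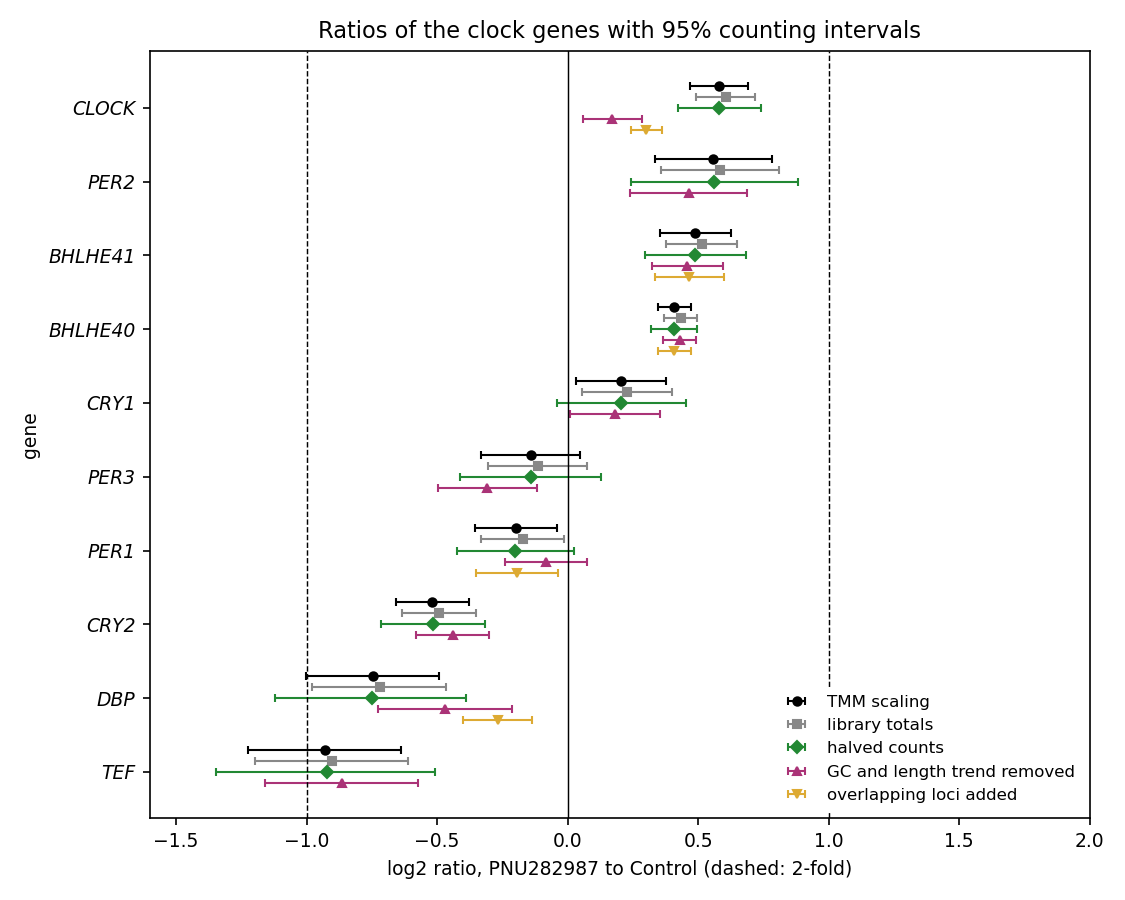
Log2 ratio of PNU282987 to Control for each clock gene with its 95% counting interval, under TMM scaling (black), scaling by library totals (grey), halved counts (green), removal of the trend over GC content and length (purple) and addition of overlapping loci (yellow). Of the 10 genes, CLOCK and DBP leave their black interval under the last 2 settings, and no point crosses 0.

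Levels of different genes were compared per kb of the longest transcript. In Control BHLHE40 stood first at 27.3 CPM per kb (26.4 to 28.2), followed by CRY2 at 6.42, BHLHE41 at 5.23, CRY1 at 4.19, DBP at 4.09, PER1 at 3.99, CLOCK at 2.77, PER3 at 2.04, TEF at 1.73 and PER2 at 1.14. The intervals of CRY1, DBP and PER1 overlapped, as did those of PER3 and TEF. In PNU282987 BHLHE40 again stood first at 36.2 CPM per kb, and BHLHE41 was next at 7.33. CRY1 at 4.82, CRY2 at 4.48 and CLOCK at 4.14 followed, with overlap between neighbours. PER1 at 3.48, DBP at 2.44, PER3 at 1.85 and PER2 at 1.68 came next, the last pair with overlapping intervals, and TEF was lowest at 0.911. With the median transcript length, CRY2 at 6.02 and CLOCK at 5.94 stood above CRY1 at 4.82 in PNU282987. The repressor BHLHE40 had more reads per kb than the activator CLOCK in both libraries.

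The clock genes beyond these 10 were read from lists of 39 genes, of which 35 reached a mean of 1 CPM. Of these 35 the 2-fold rule called 1 higher and 1 lower, against 5.77% of all loci called, so the count is near the background and is not a result about clock genes. Their median log2 ratio was 0.029. CIART (chromosome 1, 150282554 to 150287093), a repressor of CLOCK and BMAL1, was the gene called lower. It had 139 Control reads and 46 PNU282987 reads, or 3.57 CPM (2.999 to 4.21) and 1.26 CPM (0.924 to 1.68), 2.83-fold lower with a log2 ratio of -1.50 (-2.01 to -1.01). It overlapped no other locus, and its log2 ratio was -1.39 after removal of the GC and length trend. Its promoter is shown because it held 3 CACGTG, at -129, -71 and -57, a number reached by 33 of the 35116 windows, or 0.0940%. Of the 30 other clock pathway genes with a window 6 held a CACGTG. Among them NR1D2 and SIRT1 held 2 matches each, at log2 ratios of 0.16 and -0.02. A link between matches and ratios was not tested. The CIART window is chr1:150282304-150282603.
CIART: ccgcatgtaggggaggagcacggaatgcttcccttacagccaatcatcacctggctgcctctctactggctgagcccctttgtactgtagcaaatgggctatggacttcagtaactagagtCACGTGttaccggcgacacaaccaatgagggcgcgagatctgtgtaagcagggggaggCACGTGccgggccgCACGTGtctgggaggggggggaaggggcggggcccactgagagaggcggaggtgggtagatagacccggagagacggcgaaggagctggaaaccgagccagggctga

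CSNK1E (chromosome 22, 38290691 to 38318084), a casein kinase that marks PER proteins for degradation, was the gene called higher, at 332 and 750 reads and a log2 ratio of 1.27 (1.08 to 1.46). The table also lists a readthrough locus, TPTEP2-CSNK1E, that overlaps CSNK1E, with 1813 reads in Control and 1239 in PNU282987. Summed, both loci had 2145 and 1989 reads, which gives a log2 ratio of -0.01 (-0.10 to 0.076). CSNK1E took 15.5% (14.0 to 17.1) of that sum in Control and 37.7% (35.6 to 39.9) in PNU282987, and the division of reads between the loci is uncertain.

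The remaining clock pathway genes that reached a mean of 1 CPM had ratios within 2-fold. In the receptor list that controls BMAL1, NR1D2 had 25.1 and 28.1 CPM and a log2 ratio of 0.16 (0.036 to 0.29), which turned to -0.07 with the trend removed. RORA, an activator of BMAL1, had 37 and 56 reads, with a log2 ratio of 0.69 (0.069 to 1.33) that was 0.24 with the trend removed. NR1D1, a repressor of BMAL1 named after its values were seen, had 178 and 121 reads, or 4.57 and 3.32 CPM. Its log2 ratio was -0.46 (-0.81 to -0.12), or -0.29 with the trend removed. None of the 3 receptors that reached the mean then had an interval that excludes equality. Once the overlapping locus THRA was added, the log2 ratio of NR1D1 was -0.13. THRA had 619 and 562 reads, so that sum moves toward its ratio whether or not reads were misassigned. RORB, below that mean, had 0 reads in Control, which allows up to 0.0770 CPM, and 12 in PNU282987, or 0.329 CPM (0.170 to 0.575). Of the 9 kinases and ubiquitin ligases measured, 7 had a ratio above equality beyond counting error, CSNK1E among them, and 1 below, against 33.5% and 33.6% of all loci. With the trend removed 4 were above and 2 below, against 30.4% and 32.1% of the 13019 loci with a known length. PRKAA1, a catalytic subunit of the AMP-activated kinase that in mouse cells marks cryptochromes for degradation, stood at 56.9 CPM in the Control library and at 105 CPM in the other. Its log2 ratio was 0.88 (0.80 to 0.96), or 0.57 with the trend removed. CSNK1A1, a casein kinase and the most expressed of that list, had 253 and 295 CPM, a log2 ratio of 0.22 that was -0.02 with the trend removed. TIMELESS, a replication fork protein, had 64.1 and 53.5 CPM, and NAMPT, the enzyme of NAD salvage whose gene is a clock output, had 112 and 97.7 CPM.

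Genes that link the clock to outside signals were measured as well. Of 6 glucocorticoid-responsive genes 4 had a lower and 1 a higher ratio beyond counting error, with none past 1.5-fold, against 33.6% of all loci lower and 33.5% higher, and the median log2 ratio was -0.21. Of the 5 with a known length, 3 were lower and none higher with the trend removed, against 32.1% and 30.4% of all such loci. DUSP1 then moved from -0.16 to 0.0008 and NR3C1 from 0.31 to 0.024. FKBP5 moved away from equality, from -0.45 to -0.71, which is past 1.5-fold, and TSC22D3 went from -0.57 to -0.47. SGK1, a kinase and the most expressed of them, had 346 and 291 CPM. Of 5 genes of cAMP and CREB signalling 2 had a lower ratio and none a higher one beyond counting error. Over all loci the shares were 33.6% and 33.5%. CREM, 1 of the 2 lower genes, had a log2 ratio of -0.29, and of -0.07 with the overlapping locus CUL2 added. CUL2 had 2974 and 2845 reads, so that sum moves toward its ratio whether or not reads were misassigned. With the trend removed 3 of the 5 genes were lower and none higher, against 32.1% and 30.4% of all loci with a known length. CREB1 then moved from 0.07 to -0.30. CRTC2, a CREB coactivator, stood at 172 CPM in the Control library and at 102 CPM in the other, with a log2 ratio of -0.76 (-0.82 to -0.70), or -0.58 with the trend removed. Of the output genes, the transcription factor KLF9 had 129 and 206 reads, with a log2 ratio of 0.77 (0.45 to 1.10), while KLF10 had 48.9 and 49.9 CPM.

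**Figure D5:**
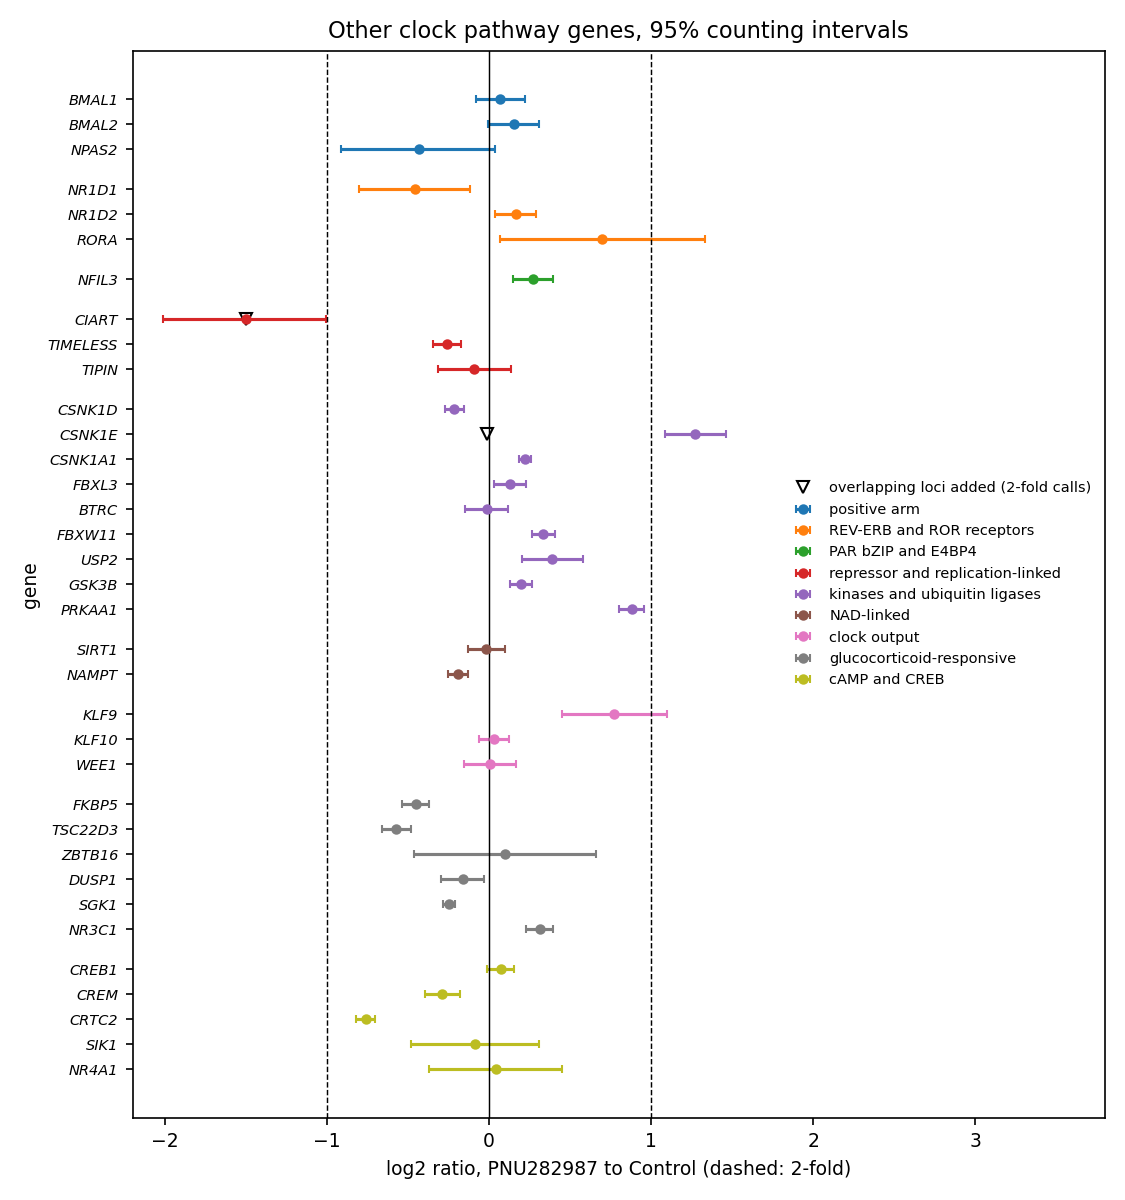
Log2 ratio of PNU282987 to Control with 95% counting intervals for the 35 other clock pathway genes whose mean reached 1 CPM, coloured by list. Open triangles give the ratio of the 2 genes called by the 2-fold rule after overlapping loci were added, which is -0.01 for CSNK1E. CIART overlapped no other locus, so its triangle at -1.50 could not move.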

How the data were processed

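RNA was sequenced from 1 Control and 1 PNU282987 library of primitive macrophages, per the labels' protocols with a stranded mRNA kit. Each value deposited by the authors is a raw count of reads at a locus, as the column names state. The submitters' processing notes name GRCh38, the aligner HISAT2 2.1.0, the assembler StringTie 2.1.3b, Trimmomatic 0.38, edgeR and FastQC 0.11.7. For their settings, for strand in counting and for multi-mapping reads, nothing was given in the sources used here. In Control 818 loci had 1 read and 958 had 2, and in PNU282987 817 had 1 and 979 had 2, so both mates of a fragment may have been counted and intervals may be too narrow. Intervals and floors cover counting error only.

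Totals were scaled by TMM in edgeR 4.0.16 (R 4.3.3), with factors of 0.991 for Control and 1.01 for PNU282987. Ratios of PNU282987 to Control carry 95% Clopper-Pearson intervals, and a count of 0 entered at 3 reads. The intervals were tested only on simulated Poisson counts, the error they assume. That test does not cover both mates of a fragment being counted. Differences between the log2 ratios of 2 genes carry exact conditional odds ratio intervals. Gene positions come from the RefSeq table of GRCh38.p14. Transcript length and GC content come from GENCODE 29 transcripts paired with the RefSeq accessions of each locus, in place of RefSeq transcripts. They were known for 91.2% of the loci tested, and their trend was fitted with mgcv 1.9.3. Alternatives covered scaling (DESeq2 1.42.0 size factors, the upper quartile, library totals), filters, the fold threshold, halved counts, that trend and overlapping loci. Adding overlapping loci to the counts of genes called was chosen after seeing the data.

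The 10 members, the gene lists and the gene pairs were chosen with earlier results of these data known. Besides the 10 members, genes named are those of the lists past 2-fold, those past 1.5-fold with an interval that excludes equality, and the most expressed of each list. BMAL1, NR1D1, RORB and HLF are named in addition, and 1 gene of the lists is not reported here. TYROBP, PECAM1, KDR, CDH5, TEK, SIRT1, DUSP1, NR3C1, FKBP5, TSC22D3, CREB1 and CREM were named after their values were seen. Genes of like pattern were not sought, since 2 libraries give a single ratio per gene. Computations used Python 3.11.15, pandas 2.3.3, SciPy 1.17.1 and matplotlib 3.10.9.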

Additional observations from a re-analysis of the deposited data

How the results depend on the processing

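Over 55 recomputed log2 ratios of the 10 clock genes none changed sign and 51 stayed within the counting interval reported. Most of these could hardly have left it, since each scaling shifts all genes alike and halving keeps a ratio apart from rounding. Of the 10 ratios with the GC and length trend removed 2 left the interval, and of the 5 with overlapping loci added 2 did. The loci added to PER1, BHLHE40 and BHLHE41 had too few reads to move those ratios far. After removal of the GC and length trend, CLOCK had a log2 ratio of 0.17 and DBP of -0.47. With the reads of overlapping loci added, CLOCK had 0.30 and DBP -0.27, sums that move toward the ratio of the added locus in any case. The cause was not tested. With halved counts, 3 intervals included equality, those of PER1, CRY1 and PER3. The 2-fold rule called none of the 10 genes under any scaling or filter tried, and the 1.5-fold rule called 2, both lower, of which DBP falls short of 1.5-fold with the trend removed or overlapping reads added. Of the 35 other clock pathway genes tested the 2-fold rule called 2, or 1 with overlapping loci added. It called 1 with a mean of at least 10 CPM, where fewer genes are tested. Without a CPM filter and with at least 10 reads it called 3. The 1.5-fold rule called 6 of the 35, against 17.4% of all loci, so that count is near the background. Over all loci the 2-fold rule called 322 (181 higher, 141 lower) with a mean of at least 10 CPM and 1829 (950 higher, 879 lower) without a CPM filter and with at least 10 reads. The 1.5-fold rule called 2487 (1252 higher, 1235 lower). No scaling moved the median log2 ratio of all loci by more than 0.026. Per kb, all 14 family shares left the interval of the shares of raw reads, and 3 of 20 ranks by level changed with the median transcript length and 14 of 20 without division by length. With 1 library per group, leaving out a replicate could not be done. No paired analysis was possible because each group has 1 library and no result comes from a test across samples. Depth limited the low genes, such as RORA with 37 and ZBTB16 with 56 reads in Control.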
